A study of Mus musculus with 4 samples.

Results

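The translation initiation and elongation factor genes of the mouse were taken by symbol, as protein-coding genes whose name begins with Eif or Eef and a digit from 1 to 6. *Eif4a3*, which works in the exon junction complex, and the eIF2 alpha kinases were left out, 5 genes in all. The rule gave 82 genes of the 56748 gene identifiers in the count files, of which 21630 were protein coding. Counts of nanopore direct RNA reads came from C2C12, a mouse myoblast line that divides in serum-rich medium. The scrambled group carried a control shRNA and the knockdown group a cocktail of 3 shRNAs against *Hnrnpl*, the gene of the splicing regulator hnRNP L, each with 2 libraries. Both were stable lines, selected with puromycin from a wild-type background, and the shRNA plasmids of both also expressed eGFP. Each group was 1 such line, and its 2 libraries came from separate passages of it. The p-values thus measure the spread between passages of 2 lines, and the shRNA cannot be told apart from other differences between those lines. Batch 1 and batch 2 of the labels each held 1 scrambled and 1 knockdown library.

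Initiation factors bring the initiator tRNA and the mRNA to the small ribosomal subunit. eIF2 carries the initiator tRNA, eIF1 and eIF1A keep the scanning subunit accurate at the start codon, eIF3 is the scaffold that binds the subunit, and eIF4F recognises and unwinds the capped end of the mRNA. eEF1A then delivers each aminoacyl-tRNA, the eEF1B subunits recharge eEF1A with GTP, eEF2 moves the ribosome along, and eIF5A relieves stalls.

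The libraries held between 1229424 and 1676911 reads counted to genes, 56.5 to 57.8% of all reads. Reads with a low mapping quality took 22.7 to 23.8% and ambiguous reads 16.0 to 16.5%. The factor genes took 2.07 and 2.04% of the counted reads in the scrambled libraries and 1.90 and 1.95% in the knockdown libraries. *Hnrnpl* had 358 and 656 reads in the scrambled and 242 and 258 in the knockdown libraries, a log2 fold change of -0.78 (SE 0.18, edgeR adjusted p = 0.0112). That call was lost without scrambled replicate 2 (log2 fold change -0.48, adjusted p = 0.194) and without knockdown replicate 1 (-0.62, adjusted p = 0.150). Of 8 myoblast markers, *Cav3* had no read, *Myod1* had 1 read in all, and 3 fell in the knockdown by edgeR: *Cdh15*, which encodes M-cadherin (log2 fold change -2.55, adjusted p = 2.03e-06), *Chrna1*, an acetylcholine receptor subunit (-1.53, adjusted p = 3.40e-05), and *Des*, which encodes desmin (-0.56, adjusted p = 0.0308). *Myf5* lay at -0.16 (adjusted p = 0.615) and *Vcam1* at 0.29 (adjusted p = 0.707), and *Itga7* had too few reads to be tested. The myoblast list summed to 915 and 1347 reads in the scrambled and 634 and 463 in the knockdown libraries. The list of 6 genes of differentiated muscle had 4 genes at 0 and 7 to 16 reads per library, and the list of 8 genes of other cell types had 5 genes at 0 and at most 2. The part of the myoblast markers in the results that follow was not tested.

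Some factor genes have processed copies elsewhere in the genome, which bears on what their counts hold, so the end of the coding sequence is shown for 4 of them with the copy of the same sequence. Each run is given 5′ to 3′ on the coding strand of GRCm39, with the stop codon in capitals. Only runs over which the member and its copy had 0 differences were shown. The alignments of the whole canonical Ensembl transcripts to these copies held 82 differences for *Eef1a1*, 14 for *Eif4a1*, 21 for *Eif3m* and 2 for *Eif2s3x*. The *Eef1a1* run lies in exon 8 at chr9:78386016-78386105 (minus strand) and its copy *Gm13456* at chr2:40447039-40447128 (plus strand). The *Eif4a1* run lies in exon 11 at chr11:69558299-69558388 (minus strand), and that of the pseudogene *Eif4a-ps4* at chr1:60744222-60744311 (plus strand), where the annotated pseudogene ends at 60744308 and the stop codon lies just past it. The *Eif3m* run lies in exon 11 at chr2:104830066-104830155 (minus strand) and that of *Gm7658* at chr1:21582157-21582246 (minus strand). The *Eif2s3x* run lies in exon 12 at chrX:93234465-93234528 (minus strand) and that of *Gm2223* at chrX:32944410-32944473 (plus strand).
Eef1a1 and Gm13456: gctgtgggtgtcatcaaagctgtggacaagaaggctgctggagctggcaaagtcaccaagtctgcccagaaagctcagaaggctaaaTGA
Eif4a1 and Eif4a-ps4: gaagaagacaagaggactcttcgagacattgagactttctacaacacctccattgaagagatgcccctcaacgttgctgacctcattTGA
Eif3m and Gm7658: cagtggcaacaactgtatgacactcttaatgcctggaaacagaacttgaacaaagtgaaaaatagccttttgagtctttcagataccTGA
Eif2s3x and Gm2223: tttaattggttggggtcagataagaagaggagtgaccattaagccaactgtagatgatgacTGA

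The copies of *Eif3m* and *Eif2s3x* held more reads than the genes themselves. *Gm13456* had 54 and 64 reads in the scrambled and 39 and 25 in the knockdown libraries, and the 7 pseudogene loci to which the *Eef1a1* transcript aligned together had 72, 88, 70 and 38. *Gm7658* had 42, 28, 27 and 13 reads where *Eif3m*, an eIF3 subunit, had 4, 6, 0 and 2. *Gm2223* had 25, 26, 18 and 12 reads where *Eif2s3x*, the eIF2 gamma subunit, had 18, 11, 12 and 9. *Eif4a-ps4* had 114, 105, 93 and 72 reads, fewer than *Eif4a1*. Of the 82 genes, 25 had another locus that reached at least 80% of the alignment score of the end of their canonical Ensembl transcript, and 13 had one that reached 95%. Of the 25, 15 belong to the *Eif1ad* cluster on chromosome 12, whose genes had few or no reads and mostly matched each other. The counts of these genes are therefore uncertain to unlike degrees, since reads could be split between the gene and its copy or set aside for low mapping quality. Aligned as annotated sequence, the ends of *Eef1a1*, *Eef2*, *Eif3e*, *Eif3m*, *Eif4a1* and *Eif4b* had a mapping quality of 60. Those of *Eif2s3x* and *Eif3j2* had 21 and 19. The copy of *Eef2* had no read, and that of *Eif3e* had 9, 2, 2 and 2 beside 1072, 1180, 820 and 802 of *Eif3e*.

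Of the 82 genes, 71 had at least 1 read, 55 passed the filter on low counts and were tested, 16 had too few reads and 11 had none. The 55 log2 fold changes of knockdown against scrambled ran from -0.84 to 0.76 with a median of -0.09, where that of the whole table of 8670 genes tested was -0.00059. Below 0 lay 36 of the 55, or 65.5%, where 50.1% of all genes tested lay below 0. At the thresholds of the study (adjusted p under 0.05, absolute log2 fold change over 0.5 and mean normalised count over 10), 2 of the 55 were called, both lower in the knockdown, where 5.55% of all genes tested were called and 3.22% called lower. By the adjusted p alone the count was also 2, where 5.95% of all genes passed. The share of factor genes called was 3.64%, and its difference from that of all genes was not tested. Before adjustment, 7 of the 55 had a p under 0.05, 6 of them lower (*Eef1a1*, *Eif1b*, *Eif1*, *Eif1ad*, *Eif5a2* and *Eef1b2*) and 1 higher (*Eif3b*), where 21.8% of all genes did (11.5% lower and 10.3% higher). The 2 groups did not overlap for 27 of the 55, 20 lower and 7 higher, where 52.4% of all genes did not overlap, 26.0% lower and 26.4% higher. In bulk RNA, fewer cells of a type and less RNA per cell cannot be told apart.

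**Figure D1:**
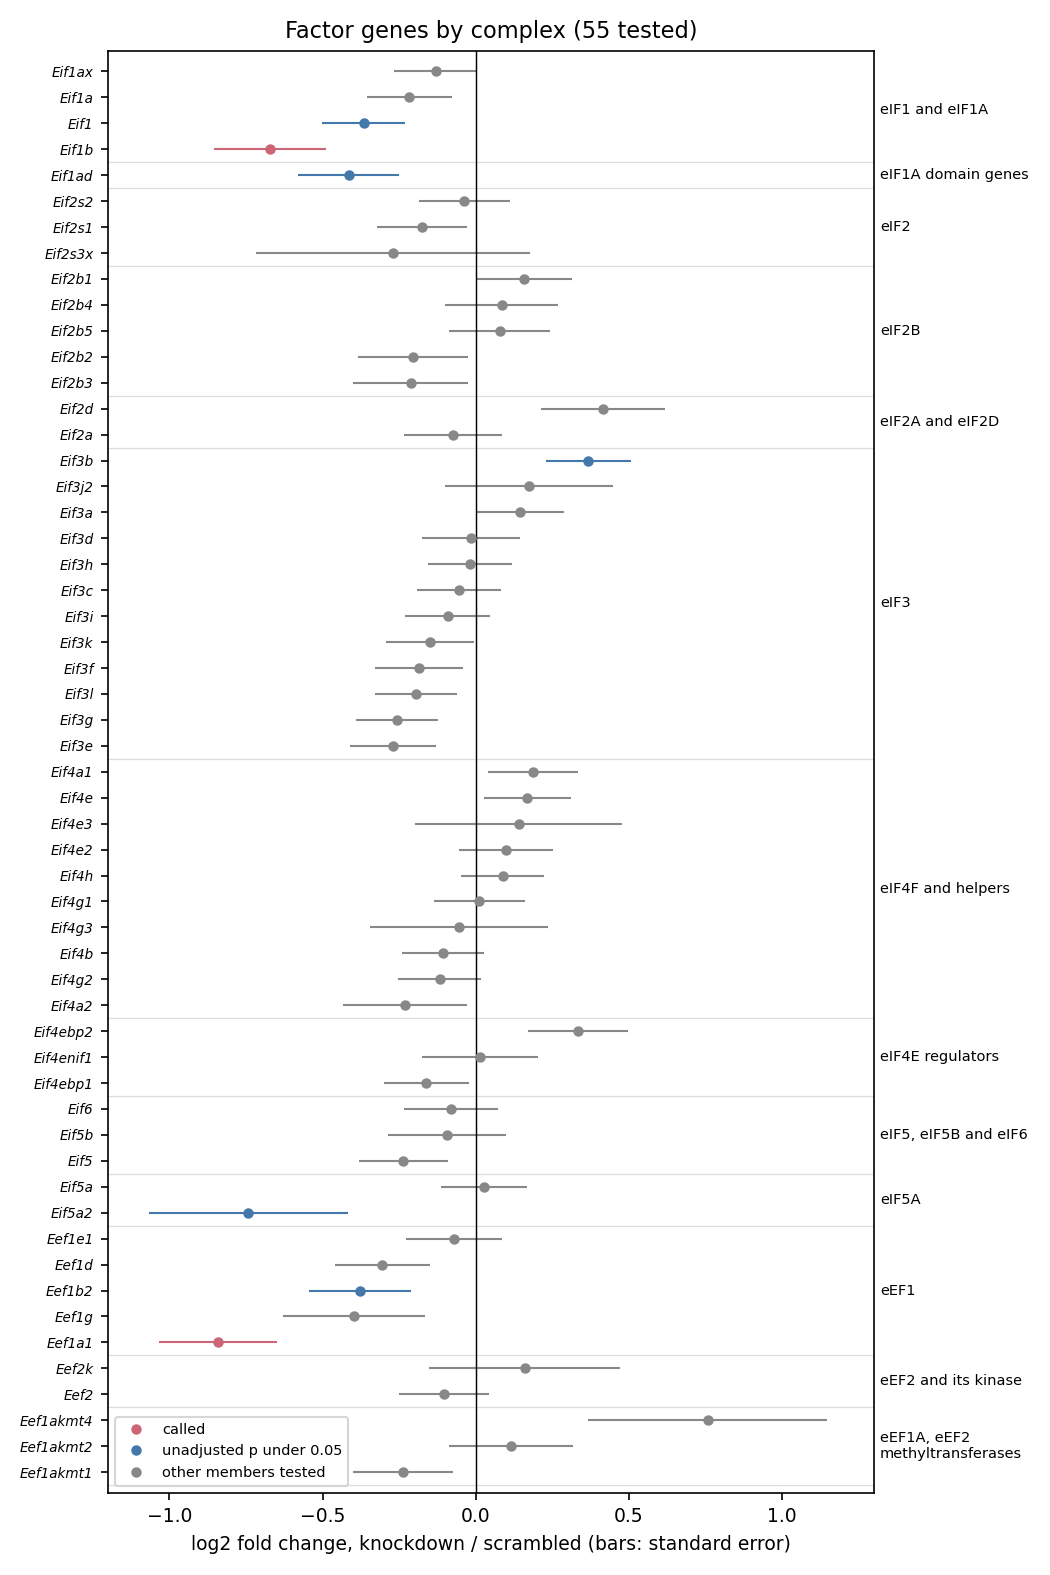
Log2 fold change of knockdown against scrambled for the 55 factor genes tested, grouped by complex, with bars of 1 SE from the edgeR fit. The *Eef1a1* and *Eif1b* points are the 2 called, at -0.84 and -0.67, and 36 of the 55 points lie below 0.

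The elongation factor eEF1 held the largest fall among the factor genes tested. *Eef1a1* (ENSMUSG00000037742.15, chr9:78384916-78396778, minus strand), which encodes the alpha subunit that binds aminoacyl-tRNA, had 129 and 167 reads in the scrambled and 93 and 51 in the knockdown libraries. In normalised counts, which scale each library to a common size, these were 135 and 141 against 92.7 and 59.7, or 138 ± 3.84 against 76.2 ± 23.4 (SD, n = 2). Both knockdown libraries lay below both scrambled libraries. The log2 fold change was -0.84 (SE 0.19, edgeR quasi-likelihood test with Benjamini-Hochberg adjustment, adjusted p = 0.0133), with ratios of -0.54 in batch 1 and -1.24 in batch 2. Without knockdown replicate 2 it was -0.57 (edgeR adjusted p = 0.131), and over 12 alternative settings the adjusted p ran from 0.00125 to 0.268 and was under 0.05 in 7. With the study's own test and fit, DESeq2's Wald test with a local fit, the adjusted p was 0.0593. The copy *Gm13456*, tested as a gene of its own, had a log2 fold change of -0.68 (edgeR adjusted p = 0.117). Another copy tested, *Gm6548*, had 15, 23, 27 and 12 reads and lay at 0.24 (edgeR adjusted p = 0.768).

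The other eEF1 subunits, which form the exchange complex that recharges eEF1A, had fold changes below 0 that did not pass. *Eef1b2* (chr1:63215940-63219645, plus strand), the beta subunit, had normalised counts of 2622 and 2259 in the scrambled and 1521 and 2235 in the knockdown libraries. Its value in knockdown replicate 2 lay just under the lower scrambled value, so the distance between the groups came from batch 1 (log2 ratio -0.79, against -0.02 in batch 2). The log2 fold change was -0.38 (SE 0.17, edgeR adjusted p = 0.187), while it was -0.68 without knockdown replicate 2 (edgeR adjusted p = 0.0102) and -0.13 without knockdown replicate 1 (0.708). *Eef1d*, the delta subunit, had 1089 and 1257 reads against 743 and 890 and a log2 fold change of -0.31 (SE 0.16, edgeR adjusted p = 0.263), again from batch 1 (-0.62, against -0.02). Without knockdown replicate 2, *Eef1d* was at -0.57 (edgeR adjusted p = 0.0360), and without knockdown replicate 1 it was at -0.08 (0.827). *Eef1g*, the gamma subunit, was nearly the same within each group, at normalised counts of 56.6 and 55.6 against 42.9 and 42.1. Its log2 fold change of -0.40 (SE 0.23) did not pass (edgeR adjusted p = 0.336). *Eef1e1*, a small eEF1-related protein of the synthetase complex, had a log2 fold change of -0.07. *Eef1a2*, the alpha isoform known from differentiated muscle, had 1 read, in knockdown replicate 2. In the scrambled libraries its 0 reads beside 129 and 167 of *Eef1a1* allow, at a limit of 3 counts, a share of the pair's reads of up to 2.33 and 1.80%. All 5 eEF1 genes tested lay below 0.

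*Eif1b* (ENSMUSG00000006941.6, chr9:120306993-120324396), a paralogue of the start codon fidelity factor eIF1, was the second gene called. Its reads were 123 and 140 in the scrambled and 87 and 57 in the knockdown libraries, or 129 and 118 against 86.7 and 66.7 in normalised counts. Of its exon bases, 28.0% are shared with other genes on either strand and 9.79% on the same strand. The other factor genes with an unadjusted p under 0.05 differed in this share. On either strand it was 39.07% for *Eif1*, 29.85% for *Eif1ad*, 20.5% for *Eef1b2*, 4.33% for *Eif5a2*, 2.2% for *Eef1a1* and 0% for *Eif3b*. On the same strand it was 11.59% for *Eef1b2*, 2.2% for *Eef1a1* and 0% for the rest. *Eif5a*, without such a p, had 31.8% on either strand. The effect of shared bases on the counts was not tested. The means of *Eif1b* were 123 ± 7.79 and 76.7 ± 14.2 (SD, n = 2) and the groups did not overlap. The log2 fold change was -0.67 (SE 0.18, edgeR adjusted p = 0.0357), with batch ratios of -0.57 and -0.82. The call was lost without scrambled replicate 1, knockdown replicate 1 or knockdown replicate 2 (edgeR adjusted p = 0.104, 0.0567 and 0.203), and the log2 fold change then lay between -0.88 and -0.51. Over 12 alternatives the adjusted p ran from 0.0214 to 0.575 and was under 0.05 in 7. None of the 4 DESeq2 configurations called it, and in the study's own, the Wald test with a local fit, the adjusted p was 0.197.

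*Eif1* (chr11:100210670-100212922), the main eIF1 gene, was close within each group and apart between them. Its normalised counts were 2397 and 2456 in the scrambled and 1899 and 1867 in the knockdown libraries. The log2 fold change was -0.37 (SE 0.13), the batch ratios were -0.34 and -0.40, and the adjusted p of 0.115 by edgeR was over the threshold. *Eif1a* and *Eif1ax*, which encode eIF1A, had log2 fold changes of -0.22 (edgeR adjusted p = 0.380) and -0.13 (0.618). With the medians of their chromosomes removed, *Eif1a* turned to 0.06 (edgeR adjusted p = 0.891) and *Eif1ax* lay at -0.04 (0.938). For all 4 genes of this group both knockdown libraries lay below both scrambled libraries, as for 26.0% of all genes tested. Summed over the 4 genes, the level was 2684 and 2671 CPM (counts scaled to a common library size) in the scrambled and 2159 and 2174 in the knockdown libraries, a log2 ratio of -0.31, with -0.31 and -0.30 within the batches. No fit across genes covers such a sum, and an exact permutation test of 2 against 2 libraries cannot go under p = 0.33.

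**Figure D2:**
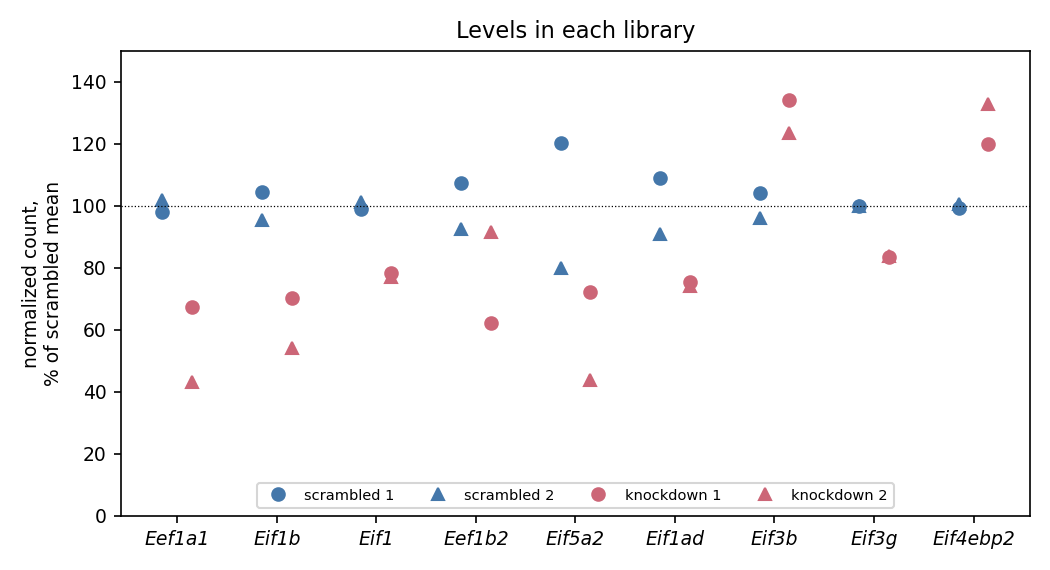
Normalised count of 9 factor genes in each of the 4 libraries, as a percentage of the scrambled mean. *Eef1a1*, *Eif1b*, *Eif1* and *Eif3g* lie lower in both knockdown libraries, *Eif3b* and *Eif4ebp2* lie higher in both, and *Eef1b2* is lower mainly in knockdown replicate 1.

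*Eif1ad*, an eIF1A domain gene of small subunit maturation, had normalised counts of 191 and 159 against 132 and 130. The log2 fold change was -0.41 (SE 0.16, edgeR adjusted p = 0.143). The 16 genes of its family cluster on chromosome 12 held at most 3 reads in a library, and 9 of them had any read.

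eIF3, the scaffold of the small subunit, had fold changes on both sides of 0 and no call. Of its 14 genes, 12 were tested, 9 of them below and 3 above 0. *Eif3b*, a core subunit (chr5:140405057-140429117), was the only factor gene higher in the knockdown with an unadjusted p under 0.05. Its normalised counts were 399 and 368 in the scrambled and 514 and 474 in the knockdown libraries, all of the latter higher. The log2 fold change was 0.37 (SE 0.14, edgeR adjusted p = 0.123), with batch ratios of 0.37 and 0.36, and it was 0.14 with the median of its chromosome removed (edgeR adjusted p = 0.723). *Eif3g*, which contacts the scanning subunit, had a fold change of the other sign, at 641 and 641 against 535 and 537 normalised counts, a log2 fold change of -0.26 (SE 0.13, edgeR adjusted p = 0.270). With the median of its chromosome removed, *Eif3g* lay at 0.11 (edgeR adjusted p = 0.777), above 0 like *Eif3b*. *Eif3e* had the lowest fold change of the complex, -0.27 (SE 0.14, edgeR adjusted p = 0.270), from 1072 and 1180 to 820 and 802 reads. Its batch ratios were -0.46 and -0.08. Without knockdown replicate 1 it lay at -0.17, where *Eif3f* (-0.30) and *Eif3g* (-0.26) lay lower. *Eif3h* was at -0.02, with 1202, 1354, 1132 and 1059 reads. *Eif3j2* had 28, 51, 45 and 32 reads, while *Eif3j1* had 0, 3, 5 and 1 and was not tested. The end of *Eif3j2* also aligned to the *Eif3j1* locus, at 99.6% of its score and with 1 difference, so the split of reads between them is uncertain. Summed over the complex, the level was 4784 and 4555 CPM against 4264 and 4469, a log2 ratio of -0.10.

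The cap-binding group had no call among its 10 genes tested, with log2 fold changes from -0.23 to 0.19. The summed level was 3510 and 3238 CPM in the scrambled and 3248 and 3399 in the knockdown libraries, which overlapped. *Eif4g2*, a relative of the eIF4G scaffold that serves cap-independent initiation, had 1890 and 2226 reads against 1777 and 1521, a log2 fold change of -0.12 (SE 0.13, edgeR adjusted p = 0.658). The helicase *Eif4a1* lay at 0.19 and its paralogue *Eif4a2* at -0.23, neither past the test (edgeR adjusted p = 0.495 and 0.547). When 1 library was left out, *Eif4a1* ran from 0.06 to 0.31. *Eif4a2* ran from -0.58 to 0.17 and was above 0 without scrambled replicate 1. The cap-binding proteins *Eif4e* and *Eif4e2* lay at 0.17 and 0.10, and the scaffolds *Eif4g1* and *Eif4g3* at 0.01 and -0.06. *Eif4e1b* had no read.

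Among the genes that hold eIF4E in check, the 2 main 4E-binding proteins had fold changes of opposite sign, neither past the test. *Eif4ebp2* had normalised counts of 117 and 119 in the scrambled and 142 and 157 in the knockdown libraries, a log2 fold change of 0.33 (SE 0.16, edgeR adjusted p = 0.239). *Eif4ebp1* had 972 and 1220 reads against 837 and 852, a log2 fold change of -0.16 (SE 0.14, edgeR adjusted p = 0.540). Its batch ratios were -0.29 and -0.04, and its fold change ran from -0.30 to -0.04 when 1 library was left out. *Eif4ebp2* thus took 10.3 and 10.4% of the pair's reads in the scrambled and 14.5 and 13.6% in the knockdown libraries. Per kilobase of the longest transcript, the mean shares were 12.4 and 16.6%. The exact 95% intervals of reads were 8.58 to 12.3% and 8.79 to 12.1% in the scrambled libraries, and 12.4 to 16.9% and 11.5 to 15.9% in the knockdown libraries, and they cover counting error only. The second knockdown interval overlaps both scrambled ones. With chromosome medians removed, the log2 fold changes were 0.09 for *Eif4ebp2* (edgeR adjusted p = 0.854) and -0.08 for *Eif4ebp1*. *Eif4enif1*, which carries eIF4E into the nucleus, lay at 0.01, and *Eif4ebp3* had no read.

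**Figure D3:**
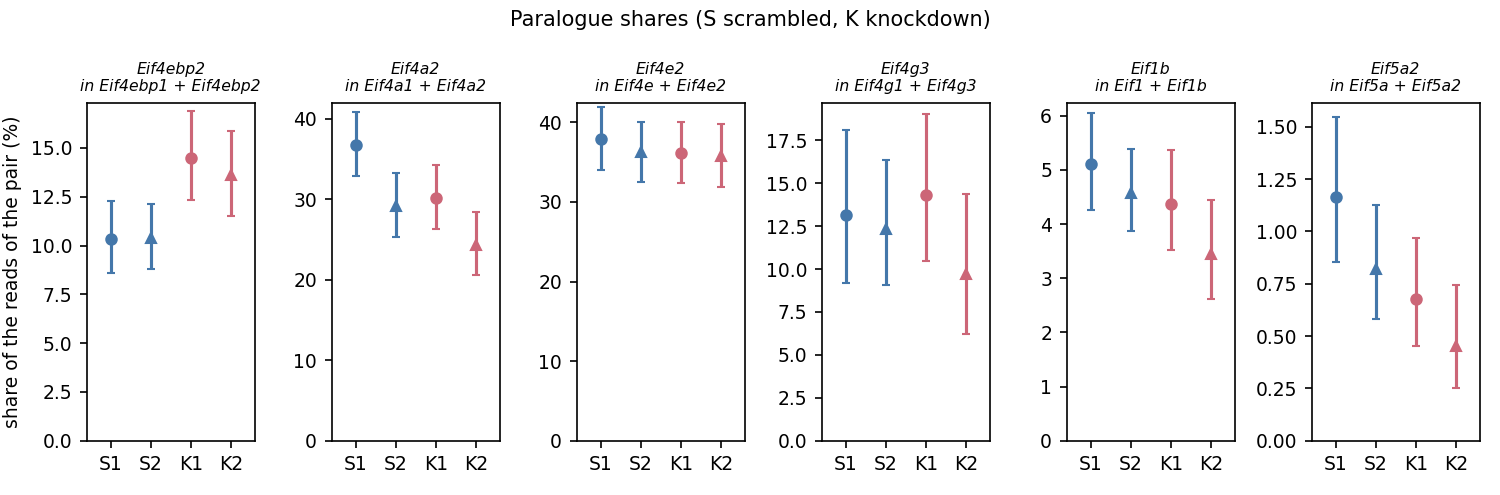
Share of reads taken by the second gene of each paralogue pair in each library, with exact 95% binomial intervals and an axis of its own from 0 in each panel. *Eif4ebp2* lies at 10.3 and 10.4% in the scrambled and at 14.5 and 13.6% in the knockdown libraries, *Eif1b* and *Eif5a2* lie lower in both knockdown libraries, and *Eif4e2* stays between 35.8 and 37.9%.

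*Eif1b* took 5.10 and 4.58% of the reads of *Eif1* and *Eif1b* in the scrambled and 4.37 and 3.45% in the knockdown libraries. *Eif1ax* took 66.9, 65.3, 67.2 and 67.6% of the eIF1A pair. *Eif4a2* took 36.8, 29.2, 30.2 and 24.4% of the helicase pair, and *Eif4g3* took 13.2, 12.4, 14.3 and 9.73% of the scaffold pair. The 2 groups overlap for both of these last pairs.

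*Eif5a*, the hypusinated factor that relieves stalled ribosomes, had 3913 and 4592 reads in the scrambled and 4265 and 3303 in the knockdown libraries, and a log2 fold change of 0.03 (SE 0.14, edgeR adjusted p = 0.937). *Eif5a2*, its rarer isoform, had 46 and 38 reads against 29 and 15, or 48.2 and 32.0 against 28.9 and 17.5 in normalised counts. The groups did not overlap, but the log2 fold change of -0.74 (SE 0.32) had an edgeR adjusted p of 0.186 and ranged from -1.17 to -0.44 when 1 library was left out. The share of *Eif5a2* in the pair was 1.16 and 0.821% in the scrambled and 0.675 and 0.452% in the knockdown libraries.

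Among the factors around the initiator tRNA, none was called by edgeR, and none had an unadjusted p under 0.05. The eIF2 alpha gene *Eif2s1* had 555 and 563 reads against 432 and 430 (log2 fold change -0.18), the beta gene *Eif2s2* lay at -0.04, and *Eif2s3x* at -0.27 (SE 0.45). In normalised counts *Eif2s1* overlapped between the groups, at 582 and 474 against 431 and 503, with batch ratios of -0.43 and 0.09. *Eif2s3y* had no read. The 5 genes of eIF2B, which exchanges GDP for GTP on eIF2, ran from -0.21 for *Eif2b3* to 0.16 for *Eif2b1*, and their sum was 412 and 416 CPM against 394 and 436. *Eif2d*, an alternative tRNA carrier, had 58 and 80 reads against 97 and 63, a log2 fold change of 0.41 (SE 0.20, edgeR adjusted p = 0.242), most of it in batch 1 (0.67, against 0.13). *Eif2a* lay at -0.07. *Eif5*, which triggers GTP hydrolysis on eIF2, had 520 and 616 reads against 401 and 431, a log2 fold change of -0.24 (SE 0.14, edgeR adjusted p = 0.359) that came from batch 1 (-0.45, against -0.04). *Eif5b*, which joins the subunits, lay at -0.09 and *Eif6*, which keeps them apart, at -0.08.

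*Eef2*, the translocase, had 1959 and 2981 reads in the scrambled and 1952 and 1968 in the knockdown libraries, with a log2 fold change of -0.10 (SE 0.15, edgeR adjusted p = 0.733). Its inhibitory kinase *Eef2k* had 20, 36, 29 and 25 reads and a log2 fold change of 0.16. The methyltransferases of eEF1A held the highest fold change of the factor genes tested, 0.76 for *Eef1akmt4* (SE 0.39, edgeR adjusted p = 0.268). It came from 24 and 14 reads against 22 and 34, with ratios of -0.20 in batch 1 and 1.75 in batch 2, and 45.7% of the exon bases of this gene are shared with other genes on either strand. *Eef1akmt1* lay at -0.24 and *Eef1akmt2* at 0.12, neither past the test. *Eef1akmt3* had 1, 2, 0 and 0 reads and *Eef2kmt*, which modifies eEF2, had 4, 6, 3 and 3. *Eef1ece2* had no read. The *Eif4a3* copies *Eif4a3l1* and *Eif4a3l2* had at most 1 read in a library.

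**Figure D4:**
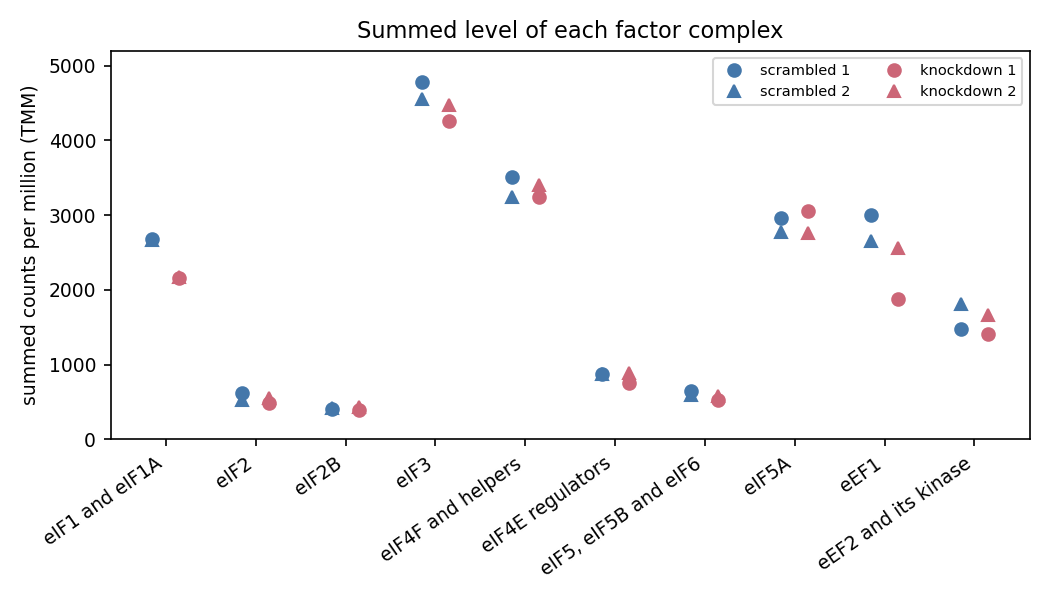
Summed level of all members of each factor complex in each library, in CPM. The eIF1 and eIF1A sum lies at 2684 and 2671 in the scrambled and 2159 and 2174 in the knockdown libraries, and the eEF1 sum is lowest in knockdown replicate 1, at 1871.

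Over all 82 genes, the summed level was 21450 and 20559 CPM in the scrambled and 18580 and 19940 in the knockdown libraries, a log2 ratio of -0.13. The eEF1 sum was 3006 and 2653 against 1871 and 2564, a log2 ratio of -0.35 that was -0.68 in batch 1 and -0.05 in batch 2.

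The chromosome on which a factor gene lies moved with its fold change. The median log2 fold change of the 492 genes tested on chromosome 9 was -0.37, and *Eef1a1*, *Eif1b* and *Eif3g*, the 3 factor genes tested there, all lay below 0. On chromosome 5 the median was 0.23 and all 4 factor genes tested, *Eif3b* among them, lay above 0. Of the 55 genes tested, 41 had the sign of their chromosome's median. By definition, at least as many genes tested on a chromosome have the sign of its median as do not. That share was not counted over all genes tested. Across these 55 genes, which share the libraries, the correlation with that median was Spearman 0.43 and Pearson 0.51, and over all 8670 genes tested it was Spearman 0.45. With the chromosome medians removed, *Eef1a1* lay at -0.47 (edgeR adjusted p = 0.243) and *Eif1b* at -0.31 (0.483), and no factor gene was called by edgeR, where 6 had an unadjusted p under 0.05. *Eif1ad* lay at -0.19, *Eif1* at -0.26, *Eef1b2* at -0.57 and *Eif5a2* at -0.84, none past the test (edgeR adjusted p from 0.0655 to 0.682). The median of the 55 was then -0.08. The part of the chromosome in the fold changes was not tested.

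**Figure D5:**
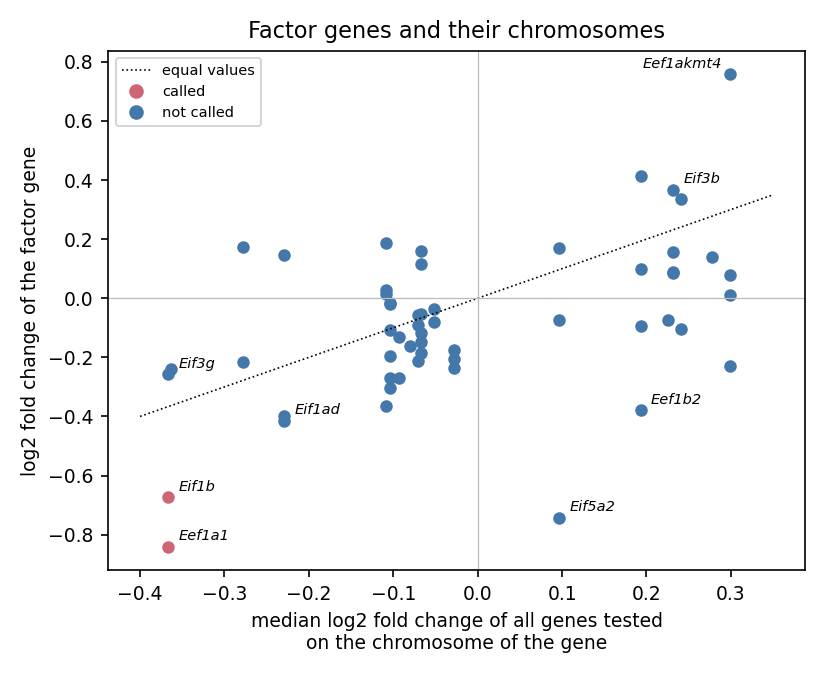
Log2 fold change of each of the 55 factor genes tested against the chromosome-wide median of the same measure over every gene tested there. Points lie mostly in the quadrants where both signs are the same, 41 of 55, with *Eef1a1* and *Eif1b* at the chromosome 9 median of -0.37.

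The genes that work beside the factors were read in the same fit. Of 50 partner genes listed, 42 were tested, with a median log2 fold change of 0.01. *Etf1*, the release factor eRF1 that ends translation at stop codons, was the 1 called (2.38%, where 5.55% of all genes tested were called). It had 596 and 682 reads in the scrambled and 391 and 342 in the knockdown libraries, both lower, a log2 fold change of -0.60 (SE 0.14, edgeR adjusted p = 0.0116). The call was kept by DESeq2's Wald test with a local fit (adjusted p = 0.00601), lost in both of its parametric fits (0.0589 and 0.0683), and lost without scrambled replicate 1 or knockdown replicate 1 (log2 fold change -0.67 to -0.54 over the 4 omissions). It was also lost with chromosome medians removed (-0.32, edgeR adjusted p = 0.262), where the median of its chromosome 18 was -0.28. Before adjustment, 8 partners (19.0%) had a p under 0.05, where 21.8% of all genes did, and apart from *Etf1* their adjusted p by edgeR lay between 0.125 and 0.224. Above 0 were *Gcn1* (0.93), which activates an eIF2 kinase, the helicase *Dhx29* (0.55), *Hbs1l* (0.51) of ribosome rescue, *Sbds* (0.38) of subunit maturation and *Rheb* (0.37), which activates mTOR. Below 0 beside *Etf1* were *Mcts1* (-0.56), of translation reinitiation, and the S6 kinase *Rps6kb1* (-0.52). *Gcn1* rested on 5, 15, 17 and 16 reads. When 1 library was left out, the log2 fold change ran from 0.49 to 1.73 for *Gcn1*, from -0.85 to -0.35 for *Mcts1* and from -0.80 to -0.27 for *Rps6kb1*.

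Cytosolic ribosomal protein genes served for comparison, with 77 of 94 tested and a median log2 fold change of -0.08, near the -0.09 of the factor genes. Taken by symbol, the list also holds copies such as *Rpl10-ps3*, *Rpl9-ps6* and *Rpl35rt*, and *Rps19bp1*, which is not a ribosomal protein gene. *Rpl35* had no read where *Rpl35rt* had 1894, 2217, 914 and 1617, so counts in this list are also uncertain. Called were 7 (9.09%, where 5.55% of all genes tested were called), *Rpl35a* higher and *Rpl13a*, *Rpl14*, *Rpl4*, *Rplp1*, *Rps24* and *Rps27l* lower, 4 of the 6 lower ones on chromosome 9 with *Eef1a1* and *Eif1b*. Without knockdown replicate 1 only 2 were called, without scrambled replicate 1 only 3, and without knockdown replicate 2 there were 12. With the replicate number as a block, *Rplp1* and *Rps27l* were no longer called (edgeR adjusted p = 0.0725 and 0.0508), which left 5. With chromosome medians removed none of the 7 was called, and *Rpl32*, at -1.25, was called instead (edgeR adjusted p = 0.0487).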

How the data were processed

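RNA of the 4 libraries was read by nanopore direct RNA sequencing. Per the labels and the study's methods, the authors aligned the reads with minimap2 2.17 to GRCm39, and deposited counts of reads per gene made with HTSeq 0.9.1, whose annotation release and strand setting are not given in the sources used here. Reads counted to genes were 56.5 to 57.8%, and the summary rows with the rest (low mapping quality, ambiguous, no feature, unaligned) were left out. Symbols came from GENCODE vM39, which held 56017 of the 56748 identifiers.

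Counts were tested in R 4.3.3 with edgeR 4.0.16 (TMM, filterByExpr, glmQLFit, glmQLFTest) over 8670 genes with Benjamini-Hochberg adjustment, and DESeq2 1.42.0, other scalings and filters, a replicate block, removal of chromosome medians and omission of each library were alternatives. The edgeR code was tested on simulated data. A floor of 3 counts is 1.79 to 2.44 CPM. The batch label pairs the replicate numbers. Deviations of same-numbered libraries correlated at -0.02 over 8670 genes. Copies were found by aligning members' canonical transcripts to GRCm39 with minimap2 2.31.

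Genes were named when they passed p under 0.05 with or without adjustment, had the highest count or an extreme fold change in their complex, or belonged to a listed paralogue pair, and partner genes when p was under 0.05. Genes that were not tested are given with counts. *Eif3g*, *Eef1d*, *Eef1g* and some others described fall outside that rule and were chosen after their values were seen. Members and lists were chosen with earlier results of these data known.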

Additional observations from a re-analysis of the deposited data

How the results depend on the processing

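The median log2 fold change of the factor genes stayed below 0 in every alternative (-0.14 to -0.04). The 2 calls fell to 0 with chromosome medians removed (edgeR, 6 genes at an unadjusted p under 0.05) and in all 4 DESeq2 configurations (4 genes each), and leaving out 1 library gave 1 to 2 calls. Without knockdown replicate 2 the calls were *Eef1b2* and *Eef1d* in place of *Eef1a1* and *Eif1b*. Genes with an unadjusted p under 0.05, 7 in all, ranged from 4 to 9 when 1 library was left out. Of these, the 1 higher became 3 with upper quartile factors, 2 with no filter and 0 with DESeq2's parametric fits (0 to 2 by library), and the 6 lower became 3 with DESeq2's local fits (2 to 7 by library). Called partner genes fell from 1 to 0 with chromosome medians removed and with DESeq2's parametric fits, and ranged from 0 to 1 by library. Called ribosomal protein genes fell from 7 to 1 with chromosome medians removed (*Rpl32*, not among the 7), to 4 with DESeq2's local and 2 with its parametric fits, and ranged from 2 to 12 by library. *Hnrnpl* lay at -0.78 in DESeq2's parametric Wald and likelihood-ratio tests, where its call was lost (adjusted p = 0.0567 and 0.0670). Its log2 fold change ranged from -1.03 to -0.48 by library. The eIF1 and eIF1A sum was -0.28 without TMM factors. By library, the eEF2 sum ran from -0.24 to 0.054, the eIF5A sum from -0.052 to 0.090, and the difference in the *Eef1a2* share from 0 to 1.92 percentage points. With reads scaled per kilobase of the longest transcript, the *Eif4ebp2* share differed by 4.28 percentage points. With the replicate number as a block, the same 2 factor genes and *Etf1* were called, and called ribosomal protein genes went from 7 to 5, without *Rplp1* and *Rps27l*. The cause of these shifts was not tested. At 2 libraries per group and these depths, genes with few reads, such as *Eif2s3x*, carry SEs too wide to show a change of modest size.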
